A study of Mus musculus with 4 samples.

Results

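The comparison described here is the genotype-by-challenge difference of responses in samples labelled as mouse lung: the antigen response of the Pla2g3-/- group minus the antigen response of the Pla2g3+/+ group. The study used 4 groups, given here as Pla2g3-/- antigen challenged, Pla2g3-/- control, Pla2g3+/+ antigen challenged and Pla2g3+/+ control. Each was measured on 1 Agilent 1-colour array, hybridised with RNA that the labels give as lung RNA pooled from 4 samples. Levels of lung markers are given below. Per the labels' protocols, mice were sensitised with 10 µg of ovalbumin in 1.3 mg of alum on days 0 and 14, breathed a 1% ovalbumin aerosol for 30 min on each of days 26, 27 and 28, and were sampled 48 h later. The labels attach that protocol to every sample, so they do not tell what the control mice received, and they give no strain, age or sex. All 4 arrays enter the comparison. Its members are the genes whose probe was well above background on every array, which gave 23580 of 30892 genes in the scanner files and 23711 in the authors' value table, with 22365 in both.

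A response is the log2 level on the challenged array minus the log2 level on the control array of the same genotype label, and the difference of responses is the KO response minus the WT response. A value of 1 means that challenge moved a gene 2-fold further up, or 2-fold less far down, in the KO-labelled pair than in the WT-labelled pair. With 1 array per group the comparison has 0 residual degrees of freedom, so it has no test and no p-value, and variation between animals or pools was not measured. All counts below are descriptions of these 4 arrays. A difference of 2-fold is used as the mark of size, and scanner values carry the combined error of the 4 spots as Agilent's software estimated it (median 0.29 on the log2 scale), which covers the reading of spots only.

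Pla2g3 encodes group III secreted phospholipase A2, a secreted enzyme that releases fatty acids and lysophospholipids from membrane phospholipids and so feeds the synthesis of prostaglandins, leukotrienes and related lipid mediators. In mice sensitised to ovalbumin, an inhaled challenge typically draws eosinophils, T cells and monocyte-derived macrophages into the lung, with type 2 cytokines such as interleukins 4, 5 and 13, chemokines that attract eosinophils, and mucus production by goblet cells. Neutrophil recruitment is more typical of innate or interleukin 17 driven airway inflammation.

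Pla2g3 itself was higher, not lower, on the arrays labelled Pla2g3-/-. On the scanner arrays its brighter probe (mm9 chr11:3394109-3394168) stood at 1.07 on the KO-labelled challenged array and 0.14 on the KO-labelled control array, against -2.83 on the WT-labelled challenged array and -3.05 on the WT-labelled control array. That is 14.9-fold higher in the KO-labelled array after challenge and 9.14-fold higher in the controls. In the value table the same probe was 25.4-fold and 22.1-fold higher in the KO-labelled columns. Which part of the gene was deleted is not given, so whether the probe lies outside it is not known. Whether the genotype labels are right was not tested. For this reason the text speaks of KO-labelled and WT-labelled arrays, and each direction below rests on those names. The difference of responses of Pla2g3 was 0.71 (error 0.29) on the scanner arrays and 0.20 in the table, both under 2-fold. Its second probe (mm9 chr11:3393127-3393186) gave 2.43 (error 0.38) and -0.14. The level of that probe was also higher under the KO label, 23.5-fold after challenge and 4.35-fold in the controls on the scanner arrays. In the table it was 14.8-fold and 16.2-fold higher. Whether that probe lies outside the deleted part is not known either.

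The 2 sources differed in content for samples of one name. Across spots, the correlation between a scanner array and its namesake in the table was 0.911 to 0.919, and within a source the lowest correlation between 2 arrays was 0.985 on the scanner arrays and 0.990 in the table. For the KO-labelled control array the highest correlation, 0.917, was with a column of another name, against 0.915 with the namesake. The same held for the WT-labelled challenged (0.915 against 0.911) and WT-labelled control arrays (0.917 against 0.914). Counts of genes shared by the sources rest on pairing by name. The sources were analysed apart, and a level in one is not set against a level in the other. Each array had 79.2 to 82.1% of its probes above background in either source. Lung markers were checked in both. Of 20 alveolar epithelial genes, 18 were measured on the scanner arrays and 20 in the table, and 1 of them on the scanner arrays and 0 in the table passed 2-fold by difference of responses. Sftpc, the surfactant protein of alveolar type 2 cells, stood in the scanner files at -0.26, -0.71, -0.66 and -1.33 on the KO-labelled challenged, KO-labelled control, WT-labelled challenged and WT-labelled control arrays. Ager, a marker of alveolar type 1 cells, stood there at -5.01, -5.17, -5.34 and -4.84. In the table Sftpc lay between 6.92 and 7.04 and Ager between 3.60 and 3.73 in the 4 columns. Both genes were thus below the 75th percentile of all probes on every array in the scanner files and far above it in every column of the table. Scgb1a1, the secretory protein of airway club cells, lay far above it in both, at 7.67 to 7.89 in the scanner files and 6.76 to 6.84 in the table.

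Challenge moved more genes past 2-fold in the KO-labelled pair than in the WT-labelled pair, in both sources. On the scanner arrays the KO-labelled pair had 663 genes higher by 2-fold or more after challenge (2.81% of those measured) and 607 lower (2.57%), against 264 higher (1.12%) and 226 lower (0.958%) in the WT-labelled pair. In the table the KO-labelled pair had 470 higher (1.98%) and 112 lower (0.472%), against 248 higher (1.05%) and 86 lower (0.363%) in the WT-labelled pair. Across genes, which are not independent replicates, the KO and WT responses correlated at 0.40 on the scanner arrays and 0.39 in the table. By difference of responses, 1282 scanner genes were past 2-fold (5.44%), 652 of them higher (2.77%) and 630 lower (2.67%). In the table this held for 551 genes (2.32%), with 278 higher (1.17%) and 273 lower (1.15%). The whole distribution was centred near 0, with a median of -0.03 and a standard deviation of 0.52 over genes in the scanner files, and 0.01 and 0.36 in the table. At 4-fold, 121 scanner genes were higher (0.513%) and 142 lower (0.602%), and the table had 36 higher (0.152%) and 53 lower (0.224%).

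**Figure D1:**
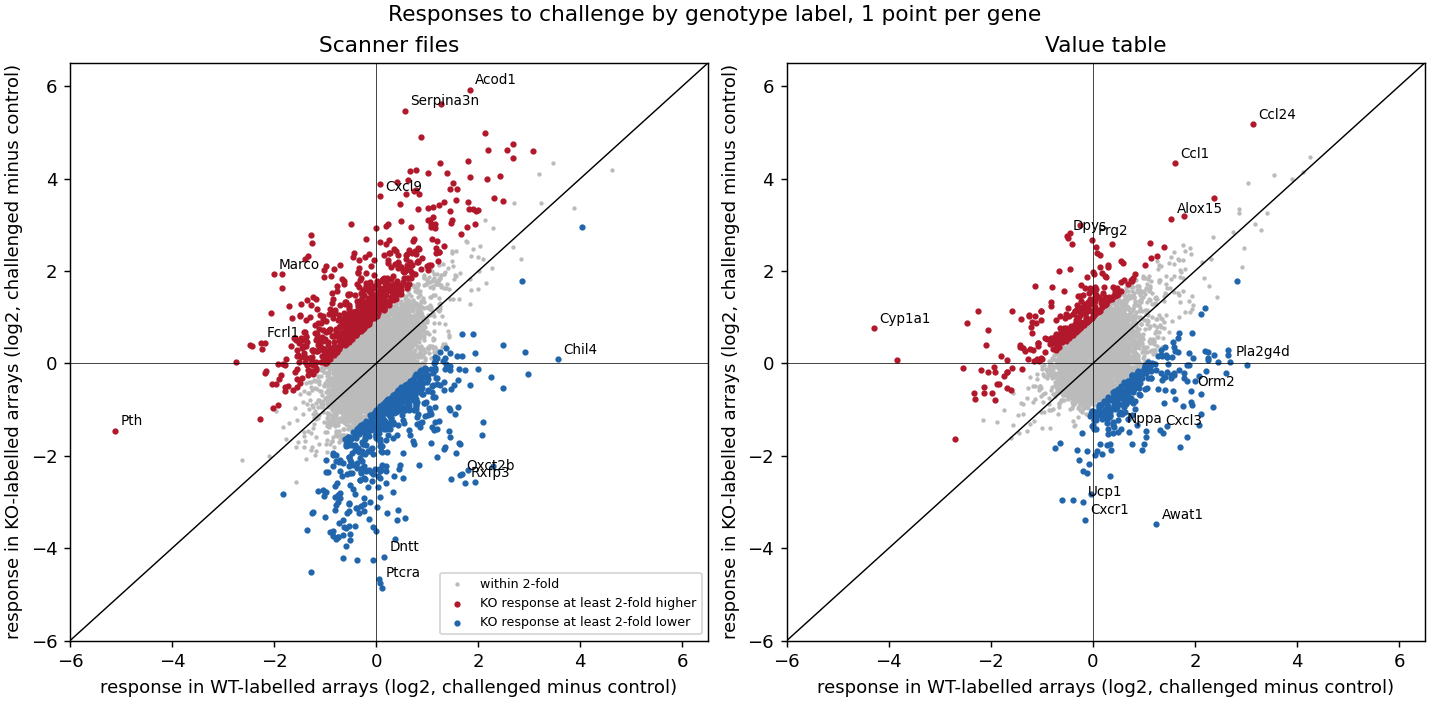
Response to challenge in the KO-labelled pair (vertical axis) against the response in the WT-labelled pair (horizontal axis), both as log2 challenged minus control, 1 point per gene above background on all 4 arrays, for the scanner files (left) and the value table (right). Red points are the 652 and 278 genes with a KO response at least 2-fold higher, blue points the 630 and 273 genes with a KO response at least 2-fold lower, and grey points lie within 2-fold.

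For genes past 2-fold, the array farthest from the median of the other 3 was counted. These genes were chosen on the same 4 values, so the direction in which an array stood apart followed from the choice. The shares over all measured genes count both directions and are not a like measure. On the KO-labelled challenged scanner array, for example, they hold 2722 genes above the others and 4962 below. Among the 652 higher scanner genes, the farthest array was the KO-labelled challenged array for 362 (55.5%), against 32.6% over all measured genes. For the 630 lower genes it was the KO-labelled control array for 328 (52.1%), against 29.1% over all genes. In the table the KO-labelled challenged column stood apart for 124 of the 278 higher genes (44.6%), against 30.8% over all, and the WT-labelled challenged column for 107 of the 273 lower genes (39.2%), against 17.7% over all. Where a gene past 2-fold had other probes above background, these mostly had the same sign: 85 of 92 other probes for higher and 78 of 85 for lower scanner genes, and 12 of 14 and 29 of 33 in the table. Fewer were past 2-fold themselves, namely 58 and 42 of these scanner probes and 5 and 15 of these table probes. The same share over all measured genes was not counted. These probes read the same RNA pools, so they bear on the reading of probes only. Dim genes carried most of the count. With genes divided by mean level into 4 bins of equal size, from lowest to highest, 11.7, 6.31, 3.17 and 0.611% were past 2-fold in the scanner files, and 6.29, 2.09, 0.658 and 0.253% in the table.

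Acute phase, neutrophil and chemokine genes were among those with the highest difference of responses in the scanner files, beside macrophage, hormone and other genes given further on. Serpina3n, an acute phase serine protease inhibitor, had the highest value among genes with an established name: it stood at 0.74 on the KO-labelled challenged array and -4.73 on the KO-labelled control array, against -1.49 and -2.05 on the WT-labelled challenged and control arrays, a difference of responses of 4.91 (error 0.29). Cxcl3, a chemokine that attracts neutrophils through Cxcr2, stood at -1.52 and -7.15 on the KO-labelled arrays, against -5.46 and -6.72 on the WT-labelled arrays, a difference of 4.36 (error 0.43). Acod1, the enzyme that makes itaconate in activated macrophages and neutrophils, stood at 0.80 and -5.12, against -2.56 and -4.39, a difference of 4.09 (error 0.09). All 3 were highest on the KO-labelled challenged array and lowest on the KO-labelled control array, so both KO-labelled arrays contributed to the difference. Il17a, the cytokine that drives neutrophil recruitment, followed with -1.58 and -6.49 on the KO-labelled arrays against -5.62 and -6.50 on the WT-labelled arrays, a difference of 4.03. Clec4e, the receptor Mincle of myeloid cells, stood at -0.07 and -3.95, against -3.24 and -3.32, a difference of 3.80. Cxcl9, an interferon-induced chemokine for T cells, stood at -1.82 and -5.44, against -4.58 and -4.65, a difference of 3.55. The responses of these 3 genes were 4.90, 3.88 and 3.62 in the KO-labelled pair, against 0.88, 0.08 and 0.07 in the WT-labelled pair. Serpina3g, an intracellular protease inhibitor of activated lymphocytes and macrophages, had a difference of 3.50.

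By list, 20 of 35 measured chemokine and receptor genes were higher by 2-fold or more and 1 was lower, with a median difference of responses of 1.33 against -0.03 for all measured genes. Over all measured scanner genes 2.77% were higher and 2.67% lower, and the list counts in this paragraph stand beside these shares. The median chemokine response was 1.30 in the KO-labelled pair and 0.10 in the WT-labelled pair. Ccl7, which attracts monocytes, had responses of 4.98 and 2.13 in the KO-labelled and WT-labelled pairs. Cxcl10, another interferon-induced T cell chemokine, had 4.38 and 1.80. Both therefore went up with challenge under both labels, by more in the KO-labelled pair. Of 23 neutrophil genes 12 were higher and none lower, with a median of 1.14, and their summed level, in multiples of the array's 75th percentile, was 323 and 232 on the KO-labelled challenged and control arrays, against 279 and 239 on the WT-labelled arrays. The formyl peptide receptors Fpr1 (3.08) and Fpr2 (2.98), which guide neutrophils to bacterial and mitochondrial peptides, were among them. Acute phase and complement genes had 7 of 20 higher and none lower, with a median of 0.47. Saa3, an acute phase protein made in inflamed tissue, had responses of 4.63 and 2.57. Of 18 immediate early genes, which encode fast-induced transcription factors, 9 were higher and none lower, all 18 lay above 0, and the median was 0.97. Fosl1 (2.35), Fosb (1.89), Egr2 (1.75) and Atf3 (1.64) led them.

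T cell development genes were among those with the lowest difference of responses in the scanner files. Ptcra, the pre-T cell receptor alpha chain, stood at -6.30 on the KO-labelled challenged array and -1.55 on the KO-labelled control array, against -6.39 and -6.47 on the WT-labelled challenged and control arrays, a difference of responses of -4.83 (error 0.39). Dntt, the template-independent DNA polymerase that diversifies antigen receptor joints, stood at -0.45 and 3.72 on the KO-labelled arrays, against -1.72 and -1.87 on the WT-labelled arrays, a difference of -4.33. Rag2, part of the recombinase that joins receptor segments, stood at -4.89 and -1.51, against -6.54 and -6.95, a difference of -3.80. In each of these the KO-labelled control array was far above the other 3 arrays. Endou, a gene of developing T cells, had the same shape, with 1.68 on the KO-labelled control array and -2.98 to -3.98 on the others, a difference of -4.71. Of 22 immature thymocyte genes, all 22 had a negative difference of responses and 16 were past 2-fold, with a median of -2.77, where 2.67% of all measured genes were lower. Like the other lists, this one was written with earlier results of these data known, so the count is a description and not an independent check. Their summed level was 10.8 and 48.1 on the KO-labelled challenged and control arrays, against 9.46 and 10.9 on the WT-labelled arrays. In bulk tissue, a larger number of cells of a type and more RNA per cell cannot be told apart.

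Mature T cell genes followed, with 14 of 24 lower, 3 higher and a median of -1.65, where 2.67% of all measured genes were lower and 2.77% higher. Lck, the kinase that starts T cell receptor signalling, stood at 0.49 and 3.73 on the KO-labelled arrays, against -0.51 and 0.07 on the WT-labelled arrays, a difference of -2.66. The summed level of the list was 10.7 and 41.6 on the KO-labelled challenged and control arrays, against 6.99 and 9.68. Among probes for T cell receptor segments, 21 of 43 were lower and none higher. This held for 11 of 11 on chromosome 6, where the beta locus lies, with a median of -2.32, and for 8 of 26 on chromosome 14, where the alpha and delta loci lie. Trat1 (-3.29), Sh2d1a (-3.56) and Ccr9 (-2.91), which encode a T cell receptor-associated adaptor, a signalling adaptor of T and NK cells and a gut and thymus homing receptor, were further members of the lymphoid lists. Of 27 cell cycle genes 6 were lower and none higher, 25 lay below 0 and the median was -0.63, with Mcm5 (-1.56) and Rrm2 (-1.48) the lowest. Col2a1, the main collagen of cartilage, stood at -6.91 and -3.56 on the KO-labelled arrays, against -6.40 and -6.97 on the WT-labelled arrays, a difference of -3.92, while 1 of 10 cartilage genes was lower. The part of lymphoid or other tissue in these differences was not tested.

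B cell genes went the other way, and for Fcrl1, which led them, the WT-labelled control array stood apart. Of 20 B cell and plasma cell genes 12 were higher and none lower, with a median of 1.15, a median KO response of 0.15 and a median WT response of -1.04. Over all measured scanner genes 2.77% were higher and 2.67% lower. Fcrl1, an Fc receptor-like protein of B cells, stood at -6.24 and -6.69 on the KO-labelled arrays, against -6.81 and -4.56 on the WT-labelled arrays, a difference of 2.70. The summed level of the list was 73.7 and 39.0 on the KO-labelled challenged and control arrays, against 62.5 and 43.7. Of 89 immunoglobulin segment probes 29 were higher and 5 lower. Parathyroid and thyroid genes had 4 of 9 higher: Pth, the parathyroid hormone, stood at -3.75 and -2.29 on the KO-labelled arrays, against -5.30 and -0.18 on the WT-labelled arrays, a difference of 3.67. Thyroglobulin, Tg, had 0.30 and 0.75, against -0.96 and 1.07. Both genes were highest on the WT-labelled control array and lowest on the WT-labelled challenged array. Of the 18 endothelial genes 5 were higher, led by Vwf (1.55), the clotting factor carrier of endothelium, and Cdh5 (1.51), the cadherin of its junctions. The summed level of the endothelial list was 10.2 and 8.16 on the KO-labelled challenged and control arrays, against 9.47 and 10.0. In the table, with 20 members measured, it was 220 and 229, against 213 and 215.

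Macrophage genes split. Marco, a scavenger receptor of alveolar macrophages, stood at 1.79 on the KO-labelled challenged array and -0.15 on the KO-labelled control array, against -0.79 and 1.22 on the WT-labelled challenged and control arrays, so that the responses, 1.94 and -2.01, were opposite in direction. Cd5l, a secreted protein of tissue macrophages, did likewise, at 0.12 and -1.82 against -2.92 and -1.07. In the value table Marco went down under both labels, with responses of -0.57 and -0.82 and a difference of 0.26. On the scanner arrays, 3 of 13 resident alveolar macrophage genes were higher and 1 lower, with a median of 0.61. Over all measured scanner genes 2.77% were higher and 2.67% lower. Chil4 and Chil3, chitinase-like proteins of alternatively activated macrophages and airway epithelium, had lower KO responses. Chil4 stood at 2.55 and 2.46 on the KO-labelled arrays, against 2.04 and -1.52 on the WT-labelled arrays, a difference of -3.47, and Chil3 had responses of 0.39 and 2.48, a difference of -2.09. For both genes 3 arrays were alike and the WT-labelled control array was low. Of 16 genes of alternative macrophage activation 8 were higher and 2 lower, with a median of 0.79, where 2.77% of all measured genes were higher and 2.67% lower. Arg1 (1.78), the arginase of such macrophages, was among the higher ones.

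The lists closest to the classical allergic response had medians nearer 0 than the chemokine, thymocyte, T cell and B cell lists in the scanner files, with some members past 2-fold, where 2.77% of all measured genes were higher and 2.67% lower. Of 19 mucus and goblet cell genes none was higher and 3 were lower, with a median of -0.10. Clca1, a secreted goblet cell protein, stood at 6.89 and 6.26 on the KO-labelled arrays, against 6.73 and 4.83 on the WT-labelled arrays, a difference of -1.27. Of 14 measured type 2 cytokine, alarmin and receptor genes 3 were higher and 1 lower, with a median of 0.29, and Il5 and Il13 were not above background on all 4 arrays. Areg (2.89), an epidermal growth factor family ligand, Il4 (1.46) and Il4ra (1.19), its receptor chain, were the higher ones and Gata3 (-2.25), the transcription factor of type 2 and developing T cells, the lower one. Of 11 eosinophil genes 2 were higher, with a median of 0.48, while Epx, Prg2 and Prg3, which encode granule proteins, were not measured. Ciliated (0 of 19) and club cell (0 of 18) genes held none past 2-fold.

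Phospholipase A2 genes other than Pla2g3 showed no common direction. Of 20 scanner genes 2 were higher, 1 was lower and the median was 0.04, and the table had 1 higher, 1 lower and a median of -0.02. Over all measured genes 2.77% were higher and 2.67% lower in the scanner files, and 1.17% and 1.15% in the table. Pla2g5, a secreted phospholipase A2, stood at -5.70 and -6.72 on the KO-labelled arrays, against -6.45 and -6.09 on the WT-labelled arrays, a difference of 1.38 (error 0.40), and Pla2g7, which breaks down platelet-activating factor, had 1.14. Pla2g4c, a cytosolic phospholipase A2, went up with challenge in both pairs, with responses of 2.95 and 4.03 in the scanner files and 3.58 and 2.37 in the table, so its difference was -1.08 on the scanner arrays and 1.21 in the table. It turned to 0.65 in the scanner files under normexp with quantile normalization. In the table Pla2g4d stood at -7.55 and -7.58 in the KO-labelled columns, against -5.22 and -7.91 in the WT-labelled columns, a difference of -2.66 set by the WT-labelled challenged column. Of the eicosanoid and lysophospholipid genes, 5 of 34 were higher and 1 lower in the scanner files, and 1 of 35 was higher in the table. Ptgs2, the inducible cyclooxygenase, stood at -0.42 and -3.39 on the KO-labelled arrays, against -2.03 and -2.23 on the WT-labelled arrays, a difference of 2.77. Enpp2 (2.01), the enzyme autotaxin that makes lysophosphatidic acid, and Ptafr (1.64), the receptor for platelet-activating factor, were also higher there, and Tbxa2r (-2.25), the thromboxane receptor, was lower.

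**Figure D2:**
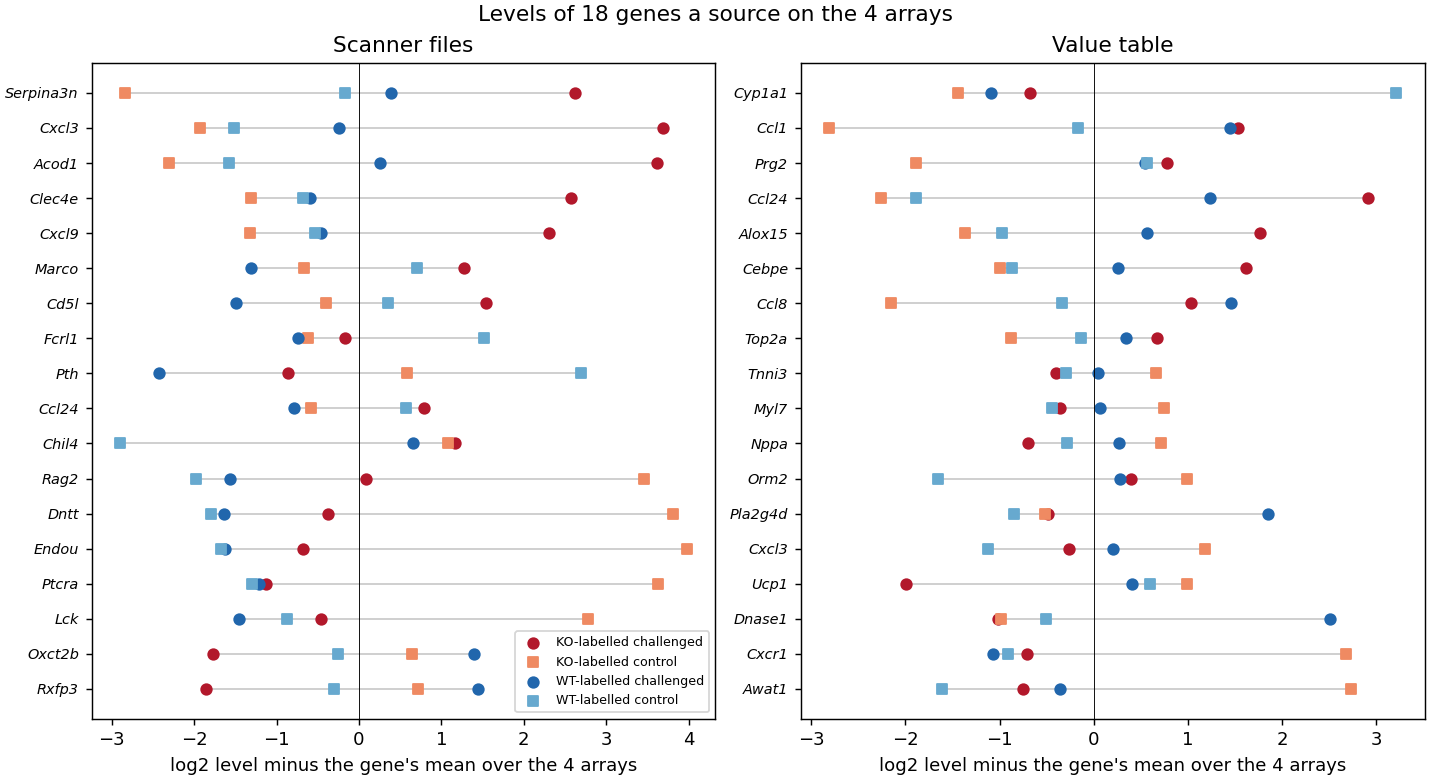
Levels of 18 genes in each source on the 4 arrays, as log2 level minus the gene's mean over the 4 arrays, with circles for challenged and squares for control arrays, red for KO-labelled and blue for WT-labelled. In the scanner files the KO-labelled challenged array is highest for Serpina3n, Cxcl3, Acod1, Clec4e and Cxcl9, and the KO-labelled control array for Rag2, Dntt, Endou, Ptcra and Lck.

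In the value table the eosinophil and cell cycle lists had the higher KO responses. Of 13 eosinophil genes 5 were at least 2-fold higher and none lower, 12 lay above 0 and the median was 0.72, where 1.17% of all measured genes were higher. Their summed level was 39.9 and 25.1 in the KO-labelled challenged and control columns, against 32.5 and 28.0 in the WT-labelled columns. Most of that sum came from Ear2, the brightest member in every column (4.24 or more), with a difference of 0.49. Ear2 is also on the list of resident alveolar macrophage genes, so the sum is not specific to eosinophils. Members with a difference near 0 included Prg3 (0.0064), which was dim, and Siglecf (0.05). Epx was not above background in all 4 columns. Prg2, the major basic protein of eosinophil granules, stood at -1.87 and -4.54 in the KO-labelled columns, against -2.10 and -2.09 in the WT-labelled columns, a difference of 2.68. Here the KO-labelled control column was the low one and the other 3 were alike. Alox15, a lipoxygenase of eosinophils and macrophages, stood at -2.28 and -5.41, against -3.48 and -5.02, a difference of 1.60. Cebpe, a transcription factor of granulocyte maturation, stood at -0.04 and -2.64, against -1.39 and -2.51, a difference of 1.49. Both were up with challenge in both pairs and highest in the KO-labelled challenged column. Ccr3 (1.19), the eotaxin receptor, was also past 2-fold. All 27 cell cycle genes lay above 0 with a median of 0.62, a median KO response of 1.14 and a median WT response of 0.45, and Top2a (1.07) and Mki67 (1.02), markers of dividing cells, were past 2-fold.

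Chemokines in the table were divided, with 4 of 39 higher, 6 lower and a median of 0.25, where 1.17% of all measured genes were higher and 1.15% lower. Ccl24, the eosinophil attractant eotaxin 2, stood at 1.1 and -4.07 in the KO-labelled columns, against -0.57 and -3.70 in the WT-labelled columns, a difference of 2.04 on responses of 5.17 and 3.13. Ccl1, a ligand of Ccr8, stood at -3.44 and -7.78, against -3.52 and -5.13, a difference of 2.72. The challenged columns were alike for Ccl1 and the KO-labelled control column was low, whereas for Ccl24 the controls were alike. Cxcr1 (-3.23), a neutrophil chemokine receptor, was lower, at -3.89 and -0.51 against -4.26 and -4.10, with the KO-labelled control column high. Cxcl3 had a difference of -2.76 and Cxcl2 of -2.17, and neutrophil genes had 1 of 24 higher, 4 lower and a median of -0.43. Mucus and goblet cell genes went up with challenge under both labels, with median responses of 2.0 and 1.81 in the KO-labelled and WT-labelled pairs, 1 of 20 past 2-fold by difference of responses and a median difference of 0.17. Muc5ac, the gel-forming mucin of goblet cells, had responses of 4.07 and 3.54, and Gcnt3 (1.84), a mucin glycosyltransferase, was the 1 past 2-fold. None of the 16 type 2 genes measured was past 2-fold.

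Heart muscle and fat genes had the lower KO responses in the table. Of 18 cardiac muscle genes 9 were at least 2-fold lower, 17 lay below 0 and the median was -1.03, where 1.15% of all measured genes were lower. Their summed level was 62.2 and 87.0 in the KO-labelled challenged and control columns, against 71.8 and 53.0 in the WT-labelled columns. Nppa, the atrial natriuretic peptide, stood at 0.19 and 1.60, against 1.15 and 0.60, a difference of -1.96. Of 16 fat cell genes 5 were lower and none higher, with a median of -0.80 and a summed level of 41.0 and 48.9, against 46.3 and 37.4. Ucp1, the uncoupling protein of brown fat, stood at -7.79 and -4.80, against -5.39 and -5.19, a difference of -2.79. The part of heart and fat tissue in these differences was not tested. Single genes lay at both ends. Cyp1a1 is a cytochrome P450 induced through the aryl hydrocarbon receptor. It stood at -3.29 and -4.06 in the KO-labelled columns, against -3.70 and 0.60 in the WT-labelled columns. The difference was 5.06, with the WT-labelled control column apart. Ahrr, the repressor of that receptor, stood at -4.42 and -6.39, against -5.64 and -5.64, a difference of 1.97 with the WT-labelled columns at 1 level. Awat1, an acyltransferase that makes wax esters, stood at -5.37 and -1.89, against -4.98 and -6.22, a difference of -4.73. The acute phase proteins Orm2 (-2.53), Orm1 (-2.24) and the fibrinogen chain Fgg (-2.75) were also lower.

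**Figure D3:**
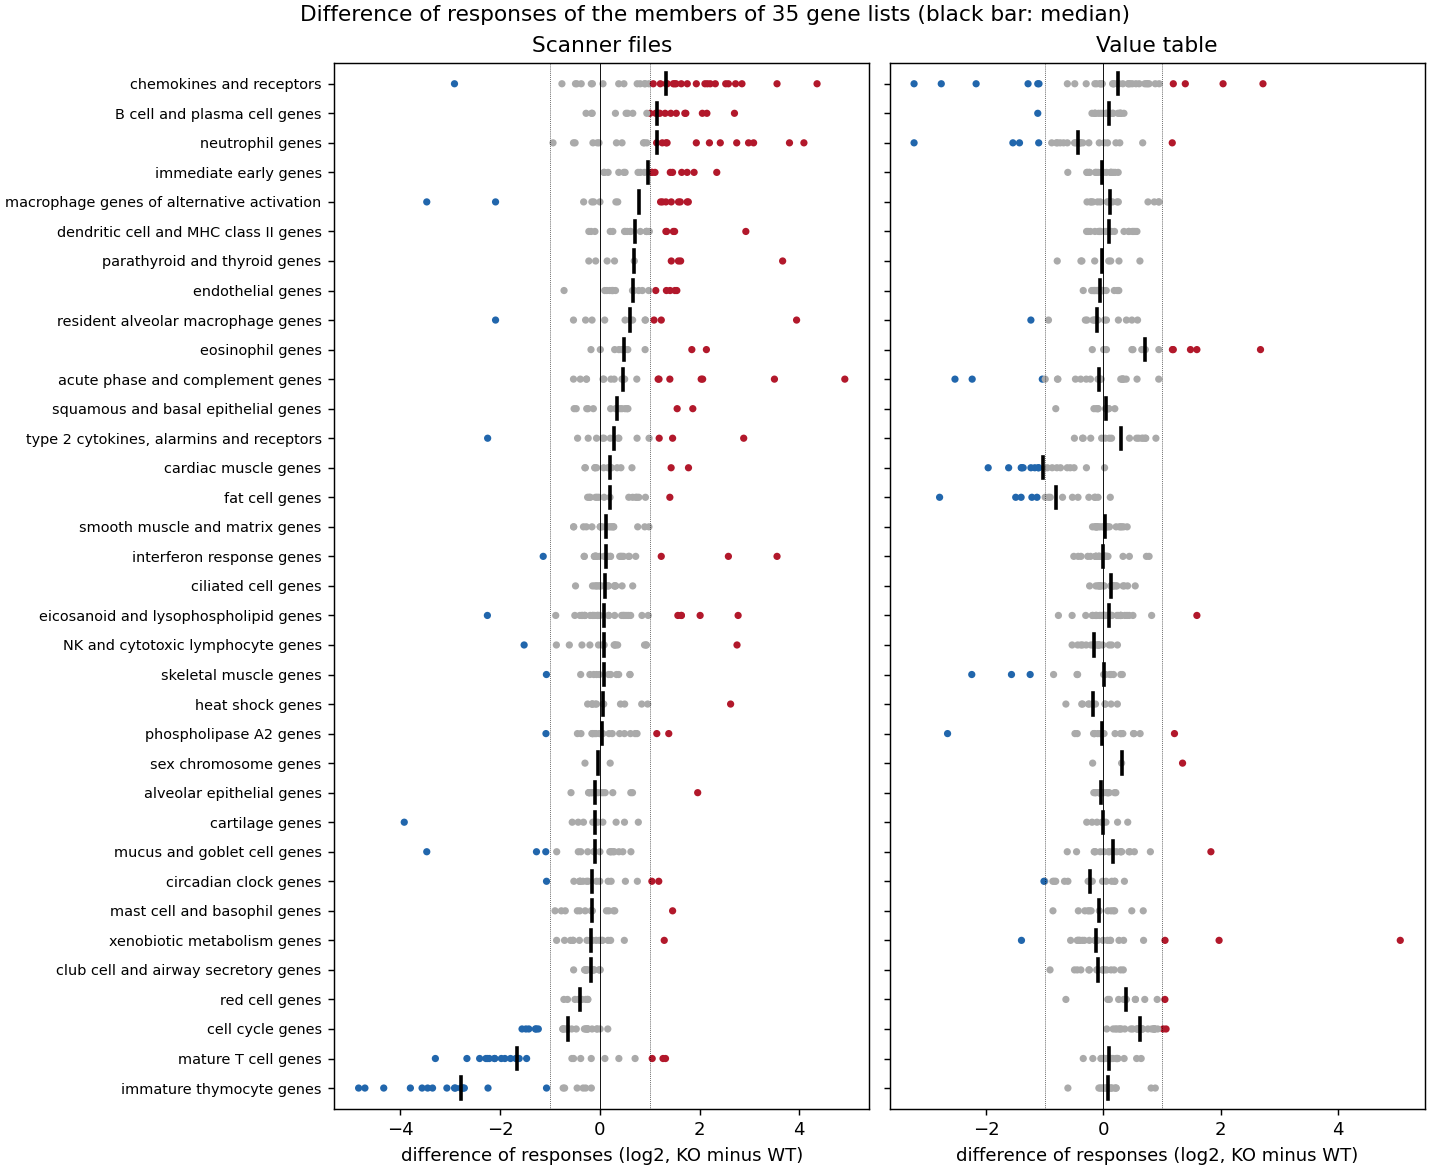
Difference of responses (horizontal axis, log2, KO minus WT) of the measured members of 35 gene lists in the scanner files (left) and the value table (right), with red for at least 2-fold higher, blue for at least 2-fold lower, grey for within 2-fold and a black bar for the list's median. Immature thymocyte genes lie lowest in the scanner files with a median of -2.77 and cardiac muscle genes lowest in the table with -1.03.

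The difference of responses had a correlation near 0 between the 2 sources over the 22365 genes measured in both, with Pearson's r at -0.00441 and Spearman's rho at -0.00317 across genes. Past 2-fold in both and higher in both were 11 genes (0.0492%), which is 1.95% of the 564 scanner genes and 5.39% of the 204 table genes that were higher. Lower in both were 22 genes (0.0984%), 3.96% of 556 and 11.52% of 191. Opposite in the 2 sources were 37 genes (0.165%), 27 of them higher in the scanner files and lower in the table. Those higher in both included Ccl24, with 2.72 on the scanner arrays and 2.04 in the table, and Ccl8, with 1.35 and 1.40, which are chemokines for eosinophils and monocytes. Adgre4 (1.85 and 1.18) and Vsig4 (1.58 and 1.1), surface receptors of myeloid cells and macrophages, Retnlg (1.35 and 1.18), a resistin-like protein of neutrophils, and Thpo (1.38 and 1.43), thrombopoietin, were higher too. Thpo was dim in both, at -6.25 to -7.53 in the scanner files (error of the difference 0.49) and -6.26 to -7.97 in the table. The level of Ccl24 took a different course in each: in the scanner files it stood at -3.79 and -5.16 on the KO-labelled arrays, against -5.36 and -4.01 on the WT-labelled arrays, with opposite responses, whereas in the table the challenged level was the higher one under both labels. Anp32a, a nuclear acidic phosphoprotein, was lower in both (-2.11 and -1.30), as was Syce1 (-1.39 and -1.71), a protein of the synaptonemal complex. Cxcl3 and Acod1 were opposite, with 4.36 and 4.09 in the scanner files and -2.76 and -1.54 in the table, and so was Saa3, with 2.06 and -1.04.

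**Figure D4:**
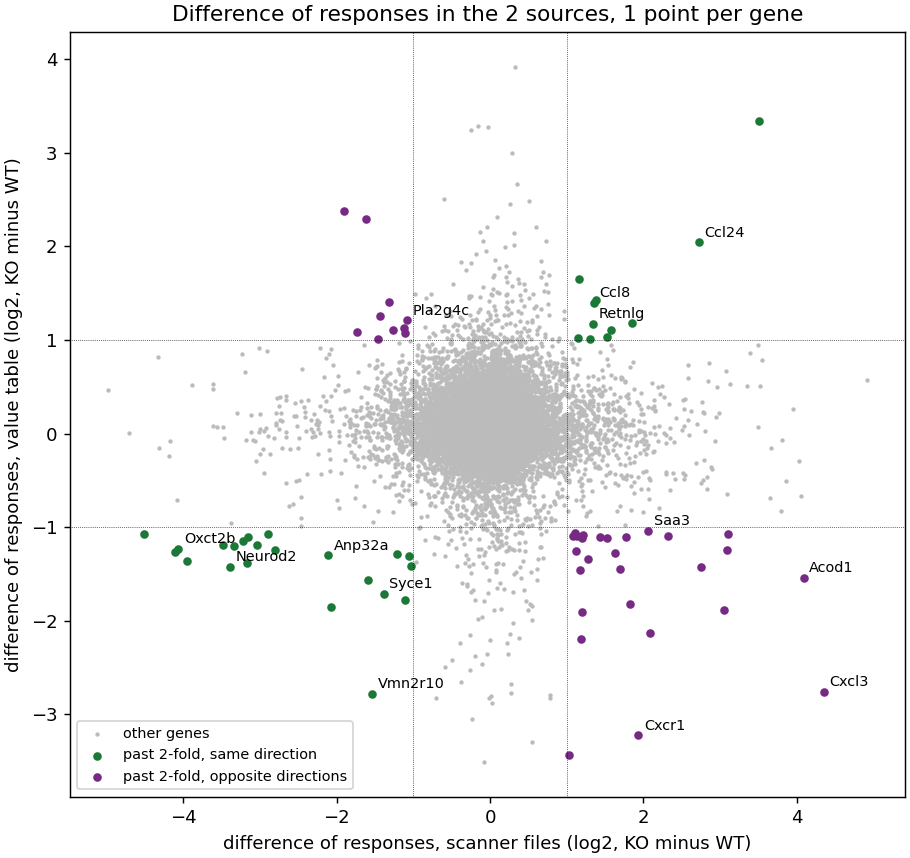
Difference of responses in the value table (vertical axis) against that in the scanner files (horizontal axis), both log2 KO minus WT, 1 point per gene for the 22365 genes measured in both. Green points are the 11 and 22 genes past 2-fold in the same direction, purple points the 37 genes past 2-fold in opposite directions, and the cloud has no slope.

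Genes whose 2 responses were each past 2-fold and opposite in direction were few. In the scanner files there were 49 (0.208%): 21 went up in the KO-labelled pair and down in the WT-labelled pair (0.0891%), and 28 went down in the KO-labelled pair and up in the WT-labelled pair (0.119%). The table had 18 (0.0759%), with 8 (0.0337%) and 10 (0.0422%) in these directions. Under normexp with quantile normalization the scanner counts were 3 and 1, and among genes above the median level they were 2 and 0. The first scanner group held macrophage genes besides Marco and Cd5l: Timd4, a phosphatidylserine receptor of resident macrophages, stood at -3.16 and -4.40 on the KO-labelled arrays, against -5.87 and -4.16 on the WT-labelled arrays. It also held Gc, the vitamin D binding protein, at -4.70 and -7.02 against -6.92 and -5.59, whose difference of 3.65 turned to -0.27 under normexp with quantile normalization. Its leading members also included Dusp8 (3.49), Art2b (3.14), Fabp7 (3.05) and Prg4 (2.89). The group was thus not made up of macrophage genes only.

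The second group was led by genes of unrelated tissues. Among them were Rxfp3, a relaxin family peptide receptor of the brain, Oxct2b, a ketone body enzyme of the testis, and Neurod2, a transcription factor of neurons. Vmn1r197, a vomeronasal receptor, and Dnajb8, a testis chaperone, were others. Rxfp3 stood at -7.41 and -4.83 on the KO-labelled challenged and control arrays, against -4.11 and -5.85 on the WT-labelled challenged and control arrays, a difference of -4.32. Oxct2b stood at -6.72 and -4.31, against -3.56 and -5.21, and Neurod2 at -6.97 and -5.22, against -4.18 and -5.82. The order of the arrays was the same for all 3: WT-labelled challenged highest, then KO-labelled control, WT-labelled control and KO-labelled challenged. Defb26 (-3.48) and Kif12 (-3.16), also of this group, had that order too. Their longest matches to the repeat described next were only 5 and 6 bases. The probes of Gm16982, Rxfp3, Oxct2b, Neurod2, Vmn1r197 and Dnajb8 each hold a run of 8 or more bases from the 6-base repeat CCCTAA. Stretches of 30 bases of these probes, 5′ to 3′ as designed, are shown because that run is what they have in common, with the match to the repeat in capitals and the mm9 position of the whole probe.
Gm16982 (chr7:148795965-148796023, minus strand): taataacccttTAACCCTAAtaaacaaaga
Rxfp3 (chr15:10963477-10963536, minus strand): caggaaaagaAACCCTAACtaggacatgct
Oxct2b (chr4:122795186-122795243, plus strand): gtgaccttaattaaaAACCCTAACCtgaaa
Neurod2 (chr11:98187943-98188002, minus strand): ttcACCCTAACacgaatctccgcgtttttt
Vmn1r197 (chr13:22420557-22420616, plus strand): gttccggagttCCTAACCCTtggttatgca
Dnajb8 (chr6:88173124-88173183, plus strand): acaagtgacagccaCCTAACCCatccctgg

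The run was searched as any 8 or more bases in a row of the repeat CCCTAA, in any phase, in the probe as designed, and the reverse complement repeat TTAGGG was searched apart. This was looked for after the values had been seen, so it is a description. On the scanner arrays 72 measured genes (0.305%) had such a probe, and 23 of them were at least 2-fold lower (31.9%) and 1 higher, against 2.58% lower among all other genes. Of the 28 genes with a KO response down and a WT response up, 14 had such a probe. The share of lower genes was 6.15% of 195 genes with a longest match of 7 bases, 18.2% of 44 with 8, 50% of 22 with 9 and 80% of 5 with 10, while the single gene with 11 bases was not past 2-fold. Of 76 genes in the table with 8 or more bases, 10 were lower (13.2%) and none higher, against 1.11% lower among the others. With TTAGGG, 0 of 47 genes on the scanner arrays and 0 of 49 in the table were lower. Rxfp3 has a second probe with a match of 4 bases, and its difference of responses was -0.07, where the probe with the 9-base match gave -4.32. Genes lower in both sources whose probe holds the run include Neurod2 (-3.39 and -1.43), Oxct2b (-4.06 and -1.23) and Dnajb8 (-3.23 and -1.15). The part of the run in these values was not tested.

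**Figure D5:**
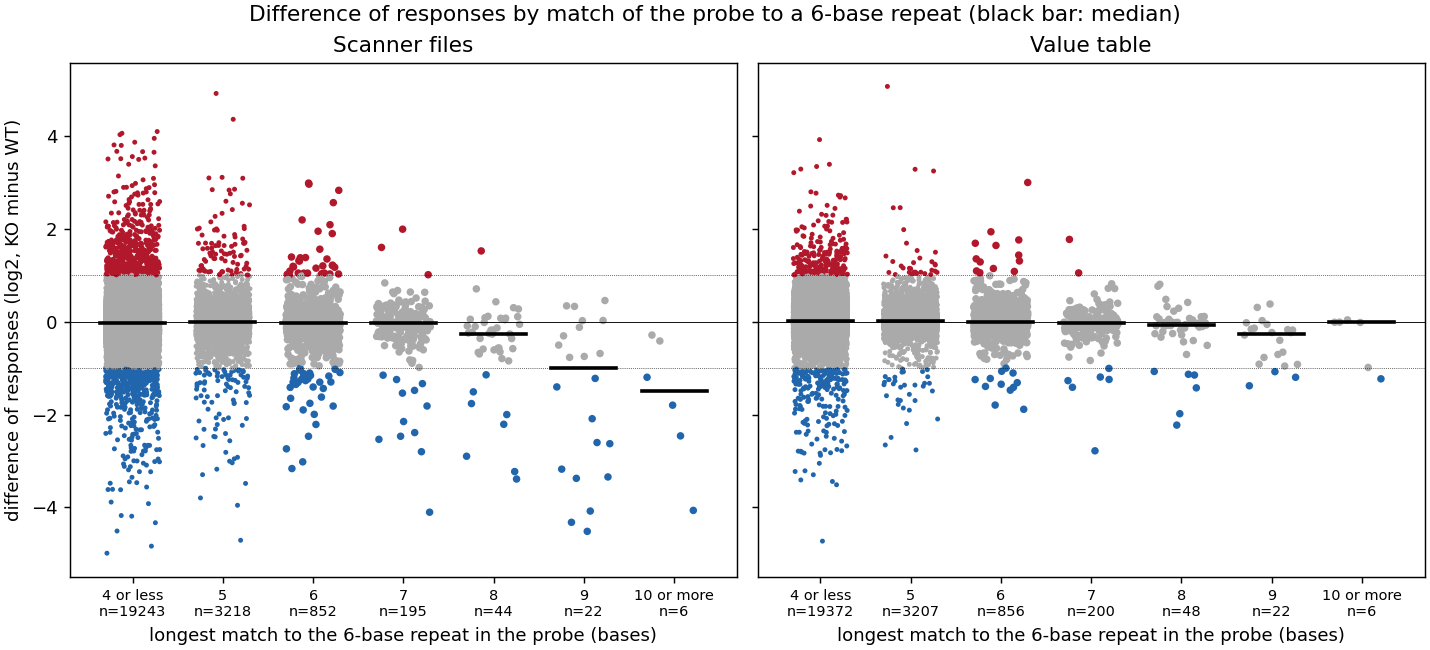
Difference of responses (vertical axis, log2, KO minus WT) of all measured genes by the longest match of their probe to the 6-base repeat (horizontal axis, bases), in the scanner files (left) and the value table (right), with red for at least 2-fold higher, blue for at least 2-fold lower, grey for within 2-fold and a black bar for the median. In the scanner files 11 of the 22 probes with a 9-base match lie at least 2-fold lower.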

How the data were processed

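The members, gene lists and settings were chosen with earlier results of these data known. Each scanner file gives, per the file headers, the processed intensity of 44397 spots (43020 non-control, 153 negative control) from Agilent Feature Extraction (11.5.1.1 per the submitters' processing notes), without normalization between arrays. The authors' deposited value table has a signal on a linear scale with a 75th percentile of 1.00 in every column, and the steps behind it are not given in the sources. The number of columns of other samples was 0. Groups came from the sample titles.

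Scanner intensities were taken to log2 minus the array's 75th percentile over non-control probes, and table signals to log2. A scanner probe counted as measured where Agilent's flag called it well above background on all 4 arrays, and a table probe where it exceeded 5 times the column's median negative control. That left 30052 of 39429 scanner probes and 30504 table probes. Spots marked uneven on any array were left out (20), and 0 were saturated. Probes were named from the supplied gene reference by accession (28752), symbol (2034) or synonym (162), and 8481 kept the file's name. A gene took its probe with the highest mean level in that source.

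The differences were plain subtractions, since 1 array per group allows no test, and the scripts were tested on simulated data. Precision is limited by the number of arrays. Named genes comprise Pla2g3, 12 genes with an established name at each end of the ranking by difference of responses, up to 8 per direction with opposite responses, up to 10 per direction shared by both sources, and up to 4 per list. Not all of these are described, and Sftpc, Scgb1a1 and Gm16982 were picked after their values were seen. The settings varied were background correction by normexp (offset 50) plus quantile normalization in limma 3.58.1 (R 4.3.3), quantile or median scaling alone, other background rules, averaging the probes of a gene, marks of 1.5- and 3-fold, the other source and 3 subsets of genes chosen after the data were seen. Python 3.11.15, pandas 2.3.3, numpy 2.4.6 and matplotlib 3.10.9 were used.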

Additional observations from a re-analysis of the deposited data

Results flagged for a closer look

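A closer look is warranted where challenge moved a gene past 2-fold up under one label and past 2-fold down under the other. Among the genes described here 20 values met this, and none of these differences was tested, since each group had 1 array. Over all scanner genes, normexp with quantile normalization left 3 such genes with KO up and 1 with KO down. In the scanner files the KO-labelled pair went up and the WT-labelled pair went down for Marco (difference of responses 3.95), Cd5l (3.79), Gc (3.65), Dusp8 (3.49), a phosphatase of MAP kinases, Art2b (3.14), an ADP-ribosyltransferase of T cells, Fabp7 (3.05), a fatty acid binding protein, Timd4 (2.95), Prg4 (2.89), the joint lubricant lubricin, and Ccl24 (2.72). The reverse held there for Rxfp3 (-4.32), Oxct2b (-4.06), Defb26 (-3.48), a beta defensin, Neurod2 (-3.39), Vmn1r197 (-3.37), Dnajb8 (-3.23), Kif12 (-3.16), a kinesin, and Angptl7 (-2.80), an angiopoietin-like protein. In the value table the KO-labelled pair went down and the WT-labelled pair went up for Awat1 (-4.73), Dppa4 (-3.51), a gene of pluripotent cells, and Cxcl3 (-2.76).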

How the results depend on the processing

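No paired analysis was possible because each group has 1 array, and for the same reason no array could be left out. The counts depend on how dim probes are treated. In the scanner files 285 genes were at least 2-fold higher and 278 lower with normexp and quantile normalization, 1118 and 978 when above background on at least 1 array sufficed, 1692 and 1724 with no filter, and 112 and 111 among genes above the median level. The 1.5-fold mark gave 1514 and 1693, and the 3-fold mark 249 and 226. In the table the counts were 505 and 489 with at least 1 array, 1419 and 1158 with no filter, 1190 and 642 at 1.5-fold, 74 and 96 at 3-fold, and 10 and 44 among genes above the median level, and 152 were higher with 10 times the negative controls. The KO-labelled challenged array stood apart for 70.2% of higher scanner genes with normexp and 49.9% with no filter. The KO-labelled control array stood apart for 69.1% of lower scanner genes with normexp, 45.3% with at least 1 array and 32.8% with no filter. The WT-labelled challenged column stood apart for 46.6% of lower table genes with at least 1 array and 30.9% with 10 times the negative controls.

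Opposite responses with KO up numbered 3 in the scanner files with normexp, 54 with at least 1 array, 98 with no filter and 2 among genes above the median level. With KO down they numbered 1, 59, 128 and 0, and 14 without the probes that hold the repeat. In the table, KO up numbered 3 with quantile normalization, 5 with median scaling, 84 with no filter, 5 with 10 times the negative controls, 4 without lymphocyte genes and 0 among genes above the median level. There, KO down numbered 21 with at least 1 array, 127 with no filter, 5 with 10 times the negative controls and 0 among genes above the median level. Genes higher in both sources numbered 33 with at least 1 array, 168 with no filter, 5 with the other background rules, 121 at 1.5-fold and 2 at 3-fold. Those lower in both numbered 158 with no filter, 14 with the other rules, 72 at 1.5-fold and 1 at 3-fold. Lists with an absolute median of 1 or more numbered 5 in the scanner files, 3 with normexp, and 1 in the table, 0 with the mean of a gene's probes.

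Within a source, 446 of 455 list medians stayed within the median spot error of their value, and 9 moved by more. Of the values of named genes under the alternatives within a source, 697 stayed within that error, 56 moved by more, and 2 whose difference was past 2-fold changed sign, Gc (-0.27) and Pla2g4c (0.65), both with normexp in the scanner files. Of 104 values compared with the other source, only 11 stayed within that error, 56 moved by more, and 37 past 2-fold in their own source had the opposite sign there. The table gave Cxcl3 -2.76, Acod1 -1.54, Il17a -0.29, Clec4e -0.0686, Cd5l -0.83, Gc -0.69, Endou 0.0032, Dntt 0.82, Sh2d1a 0.0677, Fabp7 -1.89, Prg4 -0.38, Ccr9 0.89, Saa3 -1.04, Arg1 -0.20, Trat1 0.22, Lck 0.0138 and Areg -0.35. It also gave Il4ra -0.0279, Cdh5 -0.0855, Fosl1 -0.61, Fosb -0.24, Atf3 -0.23, Mcm5 0.29, Rrm2 0.60, Pla2g5 -0.0146, Pla2g4c 1.21, Tbxa2r 0.15 and Enpp2 -0.18. For genes described in the table, the scanner files gave Cxcr1 1.94, Ucp1 0.78, Cxcl3 4.36, Acod1 4.09, Saa3 2.06, Top2a -0.74, Mki67 -0.56, Gcnt3 -0.38 and Pla2g4c -1.08. The cause was not tested.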

Other observations

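The lymphoid lists that led the scanner files showed little of this in the value table. Of 18 immature thymocyte genes measured there, none was past 2-fold and the median difference of responses was 0.08, and Ptcra, Rag1, Rag2 and Arpp21 were not above background in all 4 columns. None of 25 mature T cell genes (median 0.10) and none of 53 T cell receptor segment probes (median 0.05) was past 2-fold, and of 21 B cell and plasma cell genes 1 was lower (median 0.10). Immunoglobulin segment probes were divided in the table, with 19 of 122 higher, 21 lower and a median of -0.15, where 1.17% of all measured genes were higher and 1.15% lower.

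Further groups are given by their counts and medians. Over all measured genes 2.77% were higher and 2.67% lower in the scanner files, and 1.17% and 1.15% in the table. Interferon response genes had 3 of 29 higher and 1 lower in the scanner files (median 0.12), against 0 of 29 past 2-fold in the table (median -0.01). Smooth muscle and matrix genes had none past 2-fold in either, with medians of 0.12 and 0.03. NK and cytotoxic lymphocyte genes had 1 of 17 higher and 1 lower in the scanner files, and none of 19 past 2-fold in the table. Dendritic cell and MHC class II genes had 5 of 20 higher and none lower in the scanner files (median 0.72), and none of 22 past 2-fold in the table (median 0.09). Red cell genes differed in sign between the sources: all 9 measured lay below 0 in the scanner files (median -0.40, none past 2-fold), and 11 of 12 lay above 0 in the table (median 0.39, 1 past 2-fold). Cell cycle genes did likewise, with 25 of 27 below 0 in the scanner files and all 27 above 0 in the table.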
